A study of Mus musculus with 16 samples.

Results

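The libraries described here are a time course of Dazl crosslinking to RNA, taken at a laser power of 2.6 mW and the lower of 2 Dazl levels, labelled 1x. They are the libraries of 30, 180 and 680 s, 1 library for each time, and 3 of the 12 libraries with a file among the 16 samples of the study. The cells were GC-1 spg cells, an immortalised mouse line derived from spermatogonia. All samples carried a Dazl transgene switched on with doxycycline, in a line that the labels call monoclonal, so that every library comes from 1 clone. The method, KIN-CLIP, crosslinks protein to RNA in living cells with a pulsed ultraviolet laser for a set time, isolates the RNA bound to Dazl from a membrane and sequences it. The other groups used for comparison were the same clone at 2.6 mW and 4.2x Dazl, at 1 mW and 1x Dazl, and at 1 mW and 4.2x Dazl, each at the same 3 times. The samples of 0 s were not analysed here, so none of the values has an uncrosslinked background. With no replicate of any time, differences between times are described and have no test.

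The unit of description is the region, a stretch of the genome in which the authors list normalized coverage, with stretches at most 10 nt apart joined. There were 8338 regions, and each was listed in all 3 libraries. Of these, 6798 (81.5%) were exactly 17 nt long, 501 were shorter and 1039 were longer, up to 150 nt. The value of a region is its normalized coverage summed over its positions. Overlap with the gene spans of RefSeq put 7838 regions in 3203 genes, of which 3166 are protein-coding, and the value of a gene is the sum over its regions. Sums of this kind are larger for genes with more and longer regions and are not per length.

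Dazl is an RNA-binding protein of germ cells with an RNA recognition motif that prefers sequences around GUU. It is known for binding messenger RNAs mostly in the 3' untranslated region, close to the poly(A) tail, and for raising the translation and stability of messages that germ cells need. In a crosslinking time course, each protein molecule that is on the RNA when light strikes can be fixed there, so a site that is often and quickly occupied can collect its coverage early, and a site that is visited slowly can go on collecting it. A region is called early here when its value at 30 s was at least 50% of its value at 680 s. It is called middle when that held at 180 s and not at 30 s, and late when it held at neither time. Regions under 10 at 680 s were counted and not classed.

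Sequence was at hand for the 150 regions (1.80% of all) inside RefSeq promoter windows of GRCm38.p6 (mm10), which run from 250 bases before to 50 after a gene start, and 113 of these were 17 nt long. They lie at gene starts and are not a sample of all regions. The examples below are those with the highest values at 680 s in each class. All are printed on the plus strand of the genome, 5' to 3', and capitals mark GTT, the DNA spelling of GUU, where it occupied positions 8 to 10, the centre of the region.
Wdr53 window, chr16:32247168-32247184, early: agtgactGTTcggcaga
Ing4 window, chr6:125039787-125039803, early: aagaatgGTTacagcgc
Stk11 window, chr10:80115770-80115786, early: gtccaccGTTgcgacgt
Cript window, chr17:87025311-87025327, middle: ccgccgaagggaagggg
Zfp473 window, chr7:44748495-44748511, late: aaatggaGTTtccagca
Atp6v0e window, chr17:26676405-26676421, late: agcctctGTTgacactt
Arf5 window, chr6:28423629-28423645, late: ccggccgGTTccagccc
The Wdr53 region had values of 94, 68 and 86 at 30, 180 and 680 s, and the Stk11 region, just inside the start of the gene for the kinase Lkb1, had 55, 41 and 48. The Zfp473 region had 5, 4 and 47, and the Atp6v0e region, at a gene for a subunit of the proton pump of acidic organelles, had 9, 4 and 42. The Ing4 region lies in the span of 4930557K07Rik, the Cript region in that of Pigf and the Wdr53 region in no gene span. Early and late regions both had GTT at the centre among these examples. The Cript region, with 10, 20 and 40, had none.

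GTT stood at positions 8 to 10 in 53 of the 113 regions (46.9%). Over all stretches of the same length in the 32851 promoter windows, GTT was at the centre in 1.20%. At any other position GTT began in at most 3 of the 113 regions. Whether the authors laid out the intervals around GTT was not tested, so this contrast is no measure of what Dazl prefers. The reverse complement AAC, searched at the same place, was found in 0 of the 113 regions, against 1.20% of all stretches. The share with GTT on the plus strand was 25 of 53 regions in genes of the plus strand and 10 of 21 in genes of the minus strand, whose RNA reads AAC there. The deposited values carry no strand, and why the centring follows the plus strand was not tested. Whether the listed regions were all taken from the plus strand is not known here. If so, coverage in genes of the minus strand, such as Malat1, Timp2, Canx and Sdc4, would not be of their own RNA, and their class and distance to the gene end would not describe it. Among classed regions, GTT was at the centre in 18 of 29 early, 1 of 6 middle and 26 of 57 late regions. The median ratio of the 30 s to the 680 s value was 0.286 in the 45 classed regions with GTT at the centre and 0.200 in the 47 without.

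The same pattern of letters was seen in microRNA hairpins, for which RefSeq gives the RNA sequence. All 6 of the 17-nt regions inside hairpins had GTT at the centre on the plus strand, which is GUU in the RNA of 3 hairpins and AAC in that of 3 hairpins of the minus strand. The examples are the region with the highest value of each kind, printed as RNA with positions 8 to 10 in capitals.
Mir5114, within Scd2, chr19:44303209-44303225: ucuugcaGUUccuguuc
Mir21a, within Vmp1, chr11:86584093-86584109, minus strand: ucauggcAACagcaguc
The Mir5114 region had 29, 22 and 29 at 30, 180 and 680 s. The Mir21a region, in the part of the hairpin that gives the 3' arm of the widely expressed microRNA miR-21, had 31, 30 and 37. Both were early. The transcripts of Scd2 and Vmp1 cover the same places, and coverage of a hairpin and of its host RNA cannot be told apart.

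The whole library did not gain coverage evenly with time. The totals over all regions were 92228 at 30 s, 86071 at 180 s and 204474 at 680 s. From 30 to 180 s the total dropped by 6157, and the 680 s library was 2.38 times the 180 s library and 2.22 times the 30 s library. The median region stood at 7, 7 and 22. A value of 1, the lowest listed, was held by 1372 regions (16.5%) at 30 s, by 1948 (23.4%) at 180 s and by none of the 8338 at 680 s, where the lowest value was 2, in 825 regions. From 30 to 180 s, 3754 regions (45%) were lower, 2437 (29.2%) were higher and 2147 (25.7%) were equal, of which 1236 stood at 1 both times. At 680 s, 7219 regions (86.6%) were above both earlier values. The 30 s value was higher than the 680 s value in 666 regions, but the 180 s value was so in 49. Among the 3049 regions with at least 10 at both early times, the 180 s value divided by the 30 s value ran from 0.370 to 2.63, with a median of 0.909.

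**Figure D1:**
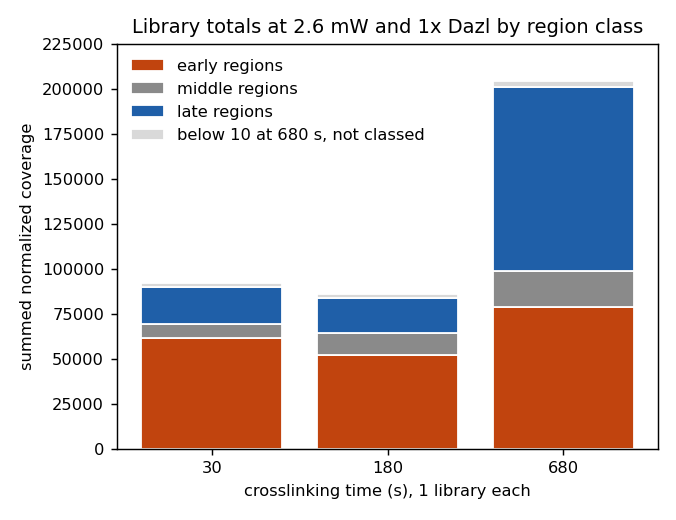
Bars show the summed normalized coverage of the 30, 180 and 680 s libraries, 1 library each, split into early, middle, late and unclassed regions. The early regions make up 61615 of 92228 at 30 s, whereas the late regions grow from 20905 at 30 s to 102322 at 680 s.

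By class, 7196 regions had at least 10 at 680 s. Of these, 2801 (38.9%) were early, 746 (10.4%) were middle and 3649 (50.7%) were late. The early regions held 66.8% of the coverage at 30 s, 60.7% at 180 s and 38.6% at 680 s. The late regions held 22.7%, 22.9% and 50.0%. The early regions were as a set higher at 30 s (61615) than at 180 s (52214), while the middle regions went from 7503 to 12059 and the late ones from 20905 to 19674. These classes follow from the ratios themselves and are no test. They depend on the scale: after division of each library by its total, 4726 of the 7196 regions were early, 308 middle and 2162 late. With the highest single position of a region in place of its sum, 4480 (62.3%) were early and 2182 (30.3%) late, so the larger class depends on these choices.

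The ratios ran over a wide range. The 30 s to 680 s ratio had a median of 0.375 over the classed regions and quartiles of 0.143 and 0.667, and it reached 1.77. The 180 s to 680 s ratio had a median of 0.425 and reached no more than 1.09. The values at 180 s were thus hardly ever above those at 680 s, and it is not known here whether the authors' normalization linked or capped the libraries of a series, which would change what these ratios and classes mean. Near the boundary, 278 regions had a 30 s ratio from 0.45 to under 0.50, and 383 had one from 0.50 to under 0.55, 154 of them exactly 0.5. At the late end, 676 regions (18.5% of the late ones) stood at 1 at both 30 and 180 s. The highest of these at 680 s was a region in Celf1, which encodes an RNA-binding protein of splicing and decay, at chr2:91012939-91012955, with 1, 1 and 44. Regions in Asap1 (1, 1 and 40) and in Rrm1, the large subunit of ribonucleotide reductase (1, 1 and 38), had the same course.

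**Figure D2:**
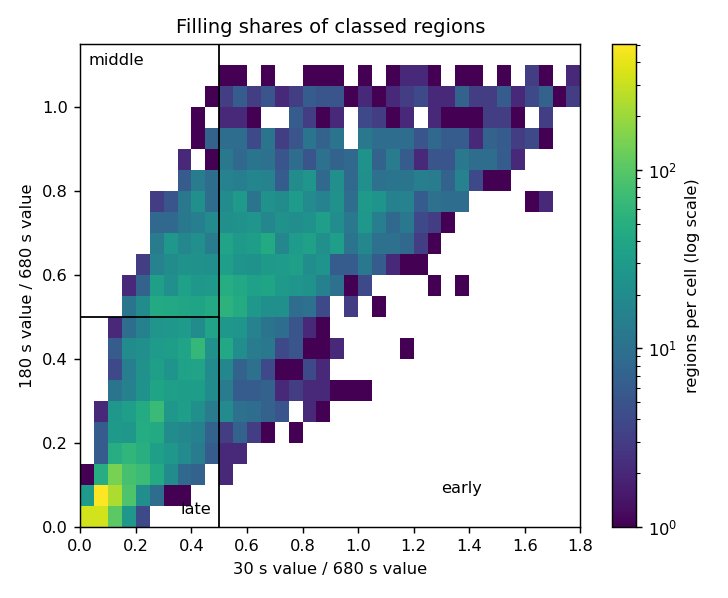
Each cell of the grid counts classed regions by the 30 s value (horizontal) and the 180 s value (vertical), both divided by the 680 s value, with a log colour scale. Lines at 0.5 separate early, middle and late regions, and the densest cells lie at the lower left, where both ratios are near 0.

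The regions with the highest values were long ones. The highest early region, of 150 nt at chr2:121437783-121437932 in Pdia3, which encodes a disulphide isomerase of the endoplasmic reticulum, stood at 367, 317 and 708. It lay 755 nt from the downstream end of the gene. Early regions were also high in Itgb1, the integrin beta 1 subunit (164, 112 and 286), and in Cebpb, a transcription factor (146, 148 and 224). The highest middle region, in the transcription factor gene Jund, had 130, 137 and 273. A neighbouring region at the end of the same gene was early, with 127, 132 and 221. The highest late region, of 86 nt in Thbs1 (thrombospondin 1, a matrix glycoprotein), had 281, 268 and 565, which put it at a 30 s ratio of 0.497, just under the boundary. Late regions further from it were those of Ppp2ca, the catalytic subunit of phosphatase PP2A (118, 132 and 295), and of Icmt, the methyltransferase that finishes prenylated proteins (86, 61 and 237).

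Summed over genes, 2201 genes reached 20 at 680 s. Of these, 770 (35.0%) were early, 164 (7.45%) middle and 1267 (57.6%) late. The median 30 s to 680 s ratio of these genes was 0.405, and the median 180 s to 680 s ratio was 0.401. After division by library totals the counts were 1644 early, 94 middle and 463 late.

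The genes with the highest sums at 680 s mostly lay close to the library as a whole, whose 30 s total was 0.451 of its 680 s total. Malat1, a long nuclear RNA of speckles, had 604, 581 and 1639 over 38 regions. Neat1, the RNA that builds paraspeckles, had 627, 636 and 1615 over 62 regions. Both were late, with 30 s ratios of 0.369 and 0.388. The matrix genes Thbs1 (600, 563 and 1280) and Col1a1, the collagen I alpha 1 chain (591, 509 and 1269), had higher ratios of 0.469 and 0.466. The desaturase gene Scd2 had 586, 565 and 1230, and Timp2, an inhibitor of matrix proteases, had 527, 532 and 1169. Canx, the lectin chaperone calnexin, had 526, 475 and 1078. Pdia3, with 448, 395 and 887, was the 1 early gene among these 10, at 0.505. The cell surface proteoglycan gene Sdc4 (319, 344 and 874) and Tm9sf3 (288, 288 and 779) had the lowest ratios of the 10 together with Malat1. These classes depend on the scale. After division of each library by its total, all 10 genes were early, with 30 s ratios from 0.809 in Sdc4 to 1.12 in Pdia3. Malat1 then had 0.817 and Neat1 0.861.

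At the early end, values were taken from the 811 genes with at least 50 at 680 s and at least 3 regions, of which 338 were early, 45 middle and 428 late. Zc3h7b, which encodes a zinc finger protein, stood at 70, 45 and 53. Its 3 regions lay within 300 nt of each other on the map of the gene and had the same course: 23, 14 and 16 at chr15:81793989-81794005, 25, 18 and 22 at chr15:81794135-81794151, and 22, 13 and 15 at chr15:81794247-81794263. Dynll2 and Dynll1, the paralogous light chains of dynein, were both at this end, with 115, 96 and 108, and with 79, 65 and 84. The other genes of the 12 with the highest 30 s ratios were the zinc transporter Slc39a10 (102, 70 and 107), the cyclin-dependent kinase inhibitor p27 gene Cdkn1b (71, 59 and 75), the copper transporter Atp7a (53, 33 and 56) and the KDEL receptor Kdelr1 (84, 62 and 89). Camsap2, which binds microtubule minus ends, had 50, 39 and 53. Blcap had 58, 46 and 62, the immune checkpoint ligand Cd47 had 56, 42 and 60, Rfc1, the clamp loader large subunit, had 65, 52 and 70, and Sestd1 had 55, 42 and 60. In each of these 12 genes the 180 s value was the lowest of the 3 times, and in Zc3h7b and Dynll2 the 30 s value was the highest.

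At the late end, the early values were close to the lowest that is listed. Zswim7, a gene of homologous recombination, stood at 3, 3 and 70. Its 3 regions, at chr11:62273752-62273768, chr11:62273783-62273799 and chr11:62273831-62273847, had 1 at 30 s, 1 at 180 s and 25, 24 and 21 at 680 s. The others of the 12 with the lowest 180 s ratios included Ddx3x, an RNA helicase of translation (5, 4 and 72), and Cflar, the caspase-8 inhibitor cFLIP (5, 4 and 70). Gfm2, a mitochondrial translation factor, had 10, 9 and 115, and Eef1a1, the factor that brings tRNA to the ribosome, had 10, 9 and 105. Ap1g1, a subunit of the adaptor AP-1, had 8, 8 and 90, with all 3 of its regions also inside another gene. Creb3l2 had 7, 6 and 66, the heterochromatin factor Bahd1 had 6, 7 and 71, Saal1 had 6, 4 and 62, and Cd2ap and the repair nuclease subunit Ercc4 both had 5, 6 and 55. Regions standing at the listed minimum of 1 at 30 and 180 s may be below it, so such ratios are upper bounds.

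**Figure D3:**
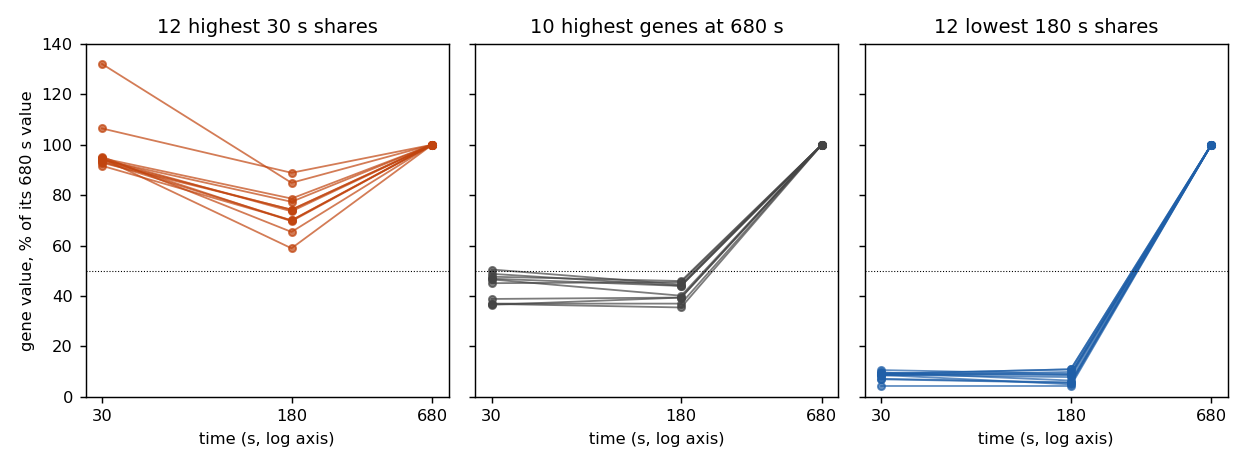
Lines show single genes, with the gene value at 30, 180 and 680 s as a percent of its own 680 s value, on a log time axis, for the 12 genes with the highest 30 s ratio, the 10 highest genes at 680 s and the 12 genes with the lowest 180 s ratio. The first set dips at 180 s, the second lies near the dotted line of 50% or below at both early times, and the third is near 0 until 680 s; these sets were chosen by the values drawn.

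Most genes with several regions held both early and late ones. Among the 833 genes with at least 3 classed regions, 673 (80.8%) had at least 1 early and at least 1 late region, and this was so in 77 of the 77 genes with at least 10. With 38.9% of all classed regions early and 50.7% late, genes with many regions would often hold both. The share for regions drawn at random was not worked out, so these counts are no result about genes. Malat1 had 12 early, 1 middle and 25 late regions, with 30 s ratios from 0.028 to 1.21. Neat1 had 20, 9 and 33, and Col1a1 had 20, 4 and 19. In Timp2, with 11, 5 and 13, the ratios ran from 0.025 to 1.45, and 1 of its late regions stood at 1, 1 and 40. In Sdc4, with 7 early, 4 middle and 11 late regions, they ran from 0.053 to 1.46. The gene's own class can rest on 1 region: the 86-nt region of Thbs1 held 44.1% of the gene's 680 s value and the 150-nt region of Pdia3 held 79.8%, while no region of Malat1 held more than 5.80%.

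**Figure D4:**
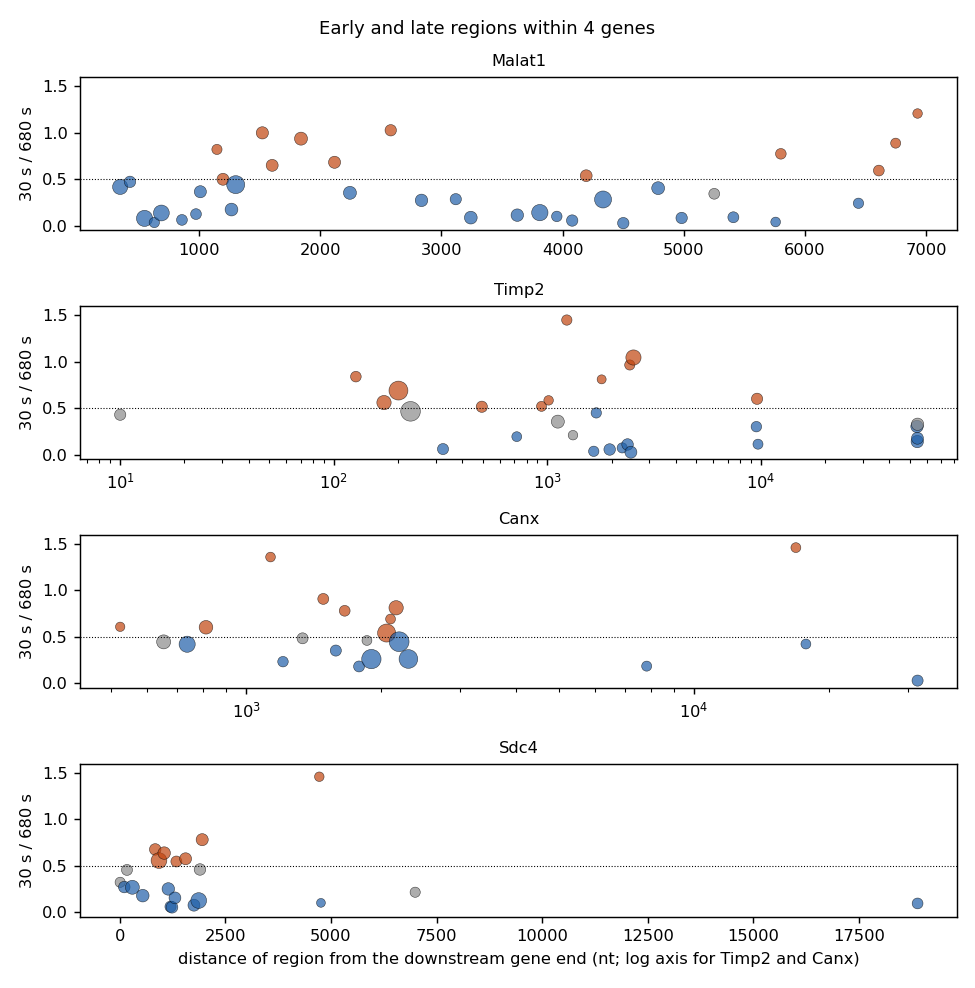
Points are the regions of Malat1, Timp2, Canx and Sdc4, by distance from the downstream gene end (nt, log axis for Timp2 and Canx) and by the 30 s value divided by the 680 s value. The area of a point grows with the 680 s value, and orange, grey and blue mark early, middle and late regions. Each gene holds all of these, and the Malat1 regions nearest the downstream end are late. All of these genes lie on the minus strand, and whether the coverage is of their own RNA is not known here.

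The genes of a single class were few. Of the 833 genes, 31 had early regions alone and 46 late regions alone, and for these counts too the share for regions drawn at random was not worked out. Cemip2, which encodes a cell surface protein of hyaluronan turnover, had 9 early regions out of 9 and stood at 180, 151 and 259. Polr2m (87, 82 and 114) and Dynll2 had 5 of 5. Genes with 5 of 5 late included Anxa1, the phospholipid-binding annexin A1 (22, 21 and 150), Eif4a1, the helicase of cap-dependent translation (33, 38 and 170, with 2 regions also inside another gene), the receptor phosphatase Ptprf (23, 22 and 169), Sh3d19 (14, 17 and 115) and the splicing factor Srek1 (14, 13 and 90). These genes were singled out after their values were seen. Regions next to each other on 1 gene were not more alike than others. Neighbours 11 to 50 nt apart had the same class in 501 of 1195 pairs (41.9%), and neighbours 51 to 200, more than 200 up to 1000, and over 1000 nt apart had it in 42.3%, 40.1% and 41.7%. A pair drawn from all classed regions has the same class in 41.9%. Spearman's rho of the 30 s ratio between neighbours, as a description over pairs that share libraries, was 0.04 at 11 to 50 nt and 0.06 at 51 to 200 nt.

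Gene groups are described by the classes of their members, beside the 35.0% early, 7.45% middle and 57.6% late of all 2201 classed genes. Among RNA-binding proteins of splicing, 16 of 35 classed SR and hnRNP genes were early, 3 middle and 16 late, with a median 30 s ratio of 0.468. The early ones included Hnrnpk (276, 222 and 501) and the paraspeckle protein gene Sfpq (181, 171 and 331). Srsf1, the founding SR protein, was late with 226, 208 and 591, and so was Srsf6 with 235, 200 and 502. In the mRNA decay and poly(A) list, 3 of 21 were early, 4 middle and 14 late. Its highest members were Tnrc6b, a partner of Argonaute (104, 112 and 211, middle), the deadenylase gene Cnot6 (96, 95 and 196, late) and the cleavage factor gene Cpsf6 (72, 57 and 181, late). Pabpc1, the cytoplasmic poly(A)-binding protein with which Dazl is known to act, stood at 21, 24 and 58, and was late.

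Genes of the translation machinery were on both sides. Of 19 classed ribosomal protein genes, 10 were early, 0 middle and 9 late, and the median 30 s ratio was 0.523, against 0.405 for all classed genes. Rplp0 had 177, 155 and 328, Rps3 had 164, 176 and 309, and Rpl22 had 71, 80 and 128. Rps3 was early with 2 of its 11 regions also inside another gene, and late, with ratios of 0.409 at 30 s and 0.484 at 180 s, over the regions in 1 gene alone. Rpl8, with 24, 24 and 88, was late. Of 19 translation factors, 7 were early, 1 middle and 11 late. The elongation factor Eef2 had 77, 74 and 210, Eif1a had 71, 72 and 204, and Larp4, a poly(A)-binding factor, had 37, 42 and 174, all late. Eif4g2, an initiation scaffold, was early with 78, 61 and 118. Regions in genes with many processed pseudogenes, such as those of ribosomal proteins and Eef1a1, can share reads with these copies, and the authors' way of placing such reads is not given here.

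The lists of matrix, of actin and adhesion, and of endoplasmic reticulum genes summed to 7683, 5670 and 6474 at 680 s, of 192146 over all genes. Of 25 collagen and secreted matrix genes, 6 were early, 1 middle and 18 late. Besides Thbs1, Col1a1 and Timp2, Fn1 (fibronectin) had 213, 178 and 480. Sparc, a collagen-binding matrix protein, was early with 370, 326 and 585, and Col1a2 was early with 149, 139 and 235, so the chains of collagen I differed in class. Of 35 actin and adhesion genes, 8 were early, 3 middle and 24 late. Itgb1 had 318, 288 and 654 and Itgav had 180, 176 and 502, both late, while Ctnna1, alpha-catenin, was early with 169, 143 and 207. Of 29 genes of endoplasmic reticulum folding, 10 were early, 3 middle and 16 late. There the oligosaccharyltransferase gene Rpn2 had 291, 258 and 557 and was early, and Hsp90b1, the chaperone Grp94, had 36, 52 and 196 and was late. Of 12 genes of sterol and fatty acid synthesis, 4 were early, 1 middle and 7 late. Sqle (104, 98 and 191) and Cyp51 (108, 112 and 170), which act in the cholesterol pathway, were early.

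Of 10 cell cycle genes, 1 was early, 1 middle and 8 late, with a median 30 s ratio of 0.296. After division by library totals 7 of the 10 were early and 3 late, near the 1644 of 2201 early genes on that scale. The cyclin D genes Ccnd2 (34, 46 and 115) and Ccnd1 (25, 23 and 105) were late, as was E2f1, a transcription factor of S phase entry, with 3, 2 and 44. The early one was Cdkn1b. Of 8 immediate early and stress genes, 6 were early and 2 late. On values divided by library totals these counts were the same, near the share of all genes, 1644 of 2201. Jund had 257, 269 and 494, Fosl2, another AP-1 subunit, had 104, 109 and 154, and Txnrd1, thioredoxin reductase, had 80, 64 and 155. Of the 6 early ones, 4 lay just above the boundary, with 30 s ratios of 0.515 (Sqstm1), 0.516 (Txnrd1), 0.517 (Egr3) and 0.520 (Jund), while Fosl2 had 0.675 and Trib1 0.853. The late ones were Dusp6 (4, 5 and 40) and Egr1 (2, 2 and 23). Of 9 genes of TGF-beta and BMP signalling, 4 were early and 5 late. The co-receptor Tgfbr3 was early with 132, 112 and 249, the targets Id1 (81, 83 and 180) and Id2 (54, 59 and 158) were late, and the type II receptor Tgfbr2 was late with 11, 13 and 73.

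After division by library totals most classed genes were early, and so were 29 of 35 splicing, 15 of 21 decay, 15 of 19 ribosomal, 14 of 19 translation, 20 of 25 matrix, 30 of 35 actin and adhesion and 26 of 29 endoplasmic reticulum genes. On that scale 6 of 8 noncoding RNAs, 9 of 12 sterol and fatty acid genes and 10 of 14 proteasome and ubiquitin genes were early. So were 7 of 9 TGF-beta and BMP, 8 of 11 nuclear transport and 2 of 4 histone genes. In the remaining lists the classes on deposited values were spread as follows. Of 8 noncoding RNAs, 2 were early and 6 late. Tug1 was early with 71, 62 and 80, whereas Rmrp, the RNA of RNase MRP, had 15, 15 and 78. Of 14 proteasome and ubiquitin genes, 6 were early, 2 middle and 6 late, among them the ligase gene Nedd4 (150, 149 and 321, late) and Skp1, an SCF subunit (164, 146 and 259, early). Ndfip1, an adaptor of Nedd4, stood at 2, 2 and 54. Of 11 nuclear transport genes, 4 were early and 7 late, with Xpo1, the main exportin, at 79, 105 and 246 and Cse1l, the exportin of importin alpha, at 124, 120 and 218. Of 4 histone genes, 1 was early and 3 late: H2ac8 had 58, 36 and 84, and H4c8 had 6, 3 and 81. Messages of replication-dependent histones end in a stem-loop and not in a poly(A) tail, and members of this family are near-identical, so their reads may be split among copies.

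Markers of the germ line had low values. Of 29 germ cell genes, 3 had a region, and none of these 3 reached the level at which genes were classed. Of all 49997 genes in the gene table, 3203 had a region. That table also holds noncoding genes, while 3166 of the 3203 are protein-coding, so the 2 shares have unlike bases. Whether having a region was rarer among germ cell genes was not tested. The marker lists are short, and their counts are no result about a cell type. Mov10l1 had 2, 2 and 3, and Rhox13 and Sall4 both had 2, 2 and 2, where 2 is the lowest value listed at 680 s. Dazl itself and Ddx4 had no region. Of 9 Sertoli markers, Wt1 (7, 3 and 25) and Dhh (2, 1 and 24) had a region, and of 6 Leydig markers 0 had one. Of 6 peritubular and fibroblast markers 4 had a region, led by Col1a1, and of 8 endothelial and macrophage markers Kdr had one, with 3, 1 and 7. The summed values of the lists at 680 s were 7 for germ cell, 49 for Sertoli, 1585 for peritubular and fibroblast and 7 for endothelial and macrophage genes. Of the 1585, Col1a1 gave 1269 and Col1a2 gave 235, while Pdgfra gave 60 and Acta2 gave 21, so this sum is mostly of collagen I. Coverage is of RNA bound to Dazl and is no measure of expression, and the input RNA was not analysed here.

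Early regions were more frequent near the downstream ends of genes. Of the regions in genes with a known strand, 430 of 932 (46.1%) were early within 300 nt of that end, 41.4% from 300 to under 1000 nt, 41.0% from 1000 to under 3000 nt and 575 of 1821 (31.6%) at 3000 nt or more. The difference between the nearest and the farthest class was 14.6 percentage points over all these regions and 3.95 points among genes with 1 region. It was 17.2 points in genes of the plus strand and 11.5 points in genes of the minus strand. Near the upstream end, within 300 nt of the gene start, 46 of 179 regions (25.7%) were early and 110 (61.5%) late. The gene table gives spans and no exons, so a region far from the end may lie in an intron or in an exon, and which of these was not analysed here.

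**Figure D5:**
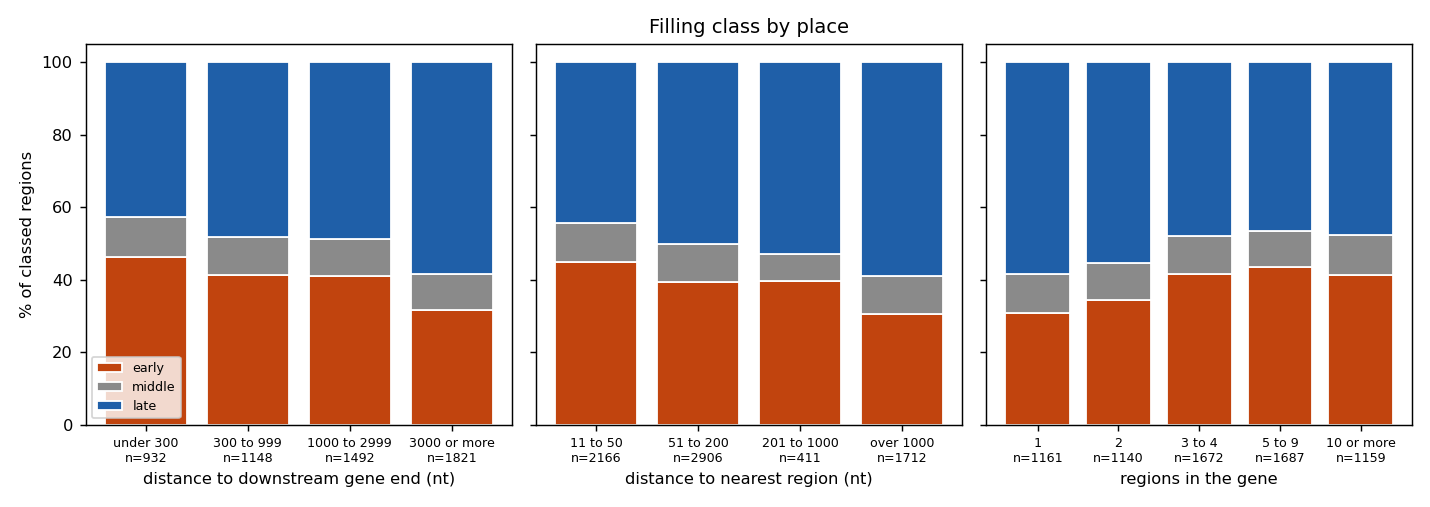
Stacked bars give the percent of classed regions that were early, middle and late, by distance to the downstream gene end, by distance to the nearest other region and by number of regions in the gene, with the number of classed regions under each bar. The early share goes from 46.1% to 31.6% with distance to the gene end and from 44.8% to 30.5% with distance to the nearest region.

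Crowding and length went with the class as well. Regions with another region 11 to 50 nt away were early in 970 of 2166 cases (44.8%), and those more than 1000 nt from the next in 523 of 1712 (30.5%). The only regions of their genes were early in 30.7% of 1161 cases, and regions of genes with 5 to 9 in 43.6% of 1687. Regions longer than 17 nt were early in 462 of 966 cases (47.8%) and those of 17 nt in 37.6% of 6209. Longer regions also had higher values, and among regions of 30 to 49 at 680 s these shares were 51.1% and 29.2%. By the 680 s value itself, the early share was 44.1% at 10 to 14, 36.9% at 20 to 29 and 43.0% at 50 or more. Regions of 1 gene and of 1 library are not independent of each other, and distance, crowding and length are related, so their separate parts in these differences were not tested.

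The share of early regions differed between the series. By the same rule, 4.89% of the 3336 classed regions were early at 1 mW and 1x Dazl, 48.1% of 6773 at 1 mW and 4.2x, and 67.8% of 7303 at 2.6 mW and 4.2x. In these series the 30 s library total was 0.187, 0.485 and 0.688 of the 680 s total, and 0.451 at 2.6 mW and 1x. The early shares had the same order as these totals, and the scale of the libraries and the filling of regions cannot be told apart. Of the 3649 regions that were late at 2.6 mW and 1x, 1644 (45.1%) were early, 1044 (28.6%) middle and 961 (26.3%) late at 2.6 mW and 4.2x. Of the 2801 early ones, 2572 (91.8%) were also early there. Across regions, Spearman's rho between the 2.6 mW series of 1x and 4.2x Dazl was 0.62 for the 30 s ratio and 0.73 for the 180 s ratio over 7196 regions. It was 0.44 and 0.58 against 1 mW and 4.2x over 6762 regions, and 0.21 and 0.19 against 1 mW and 1x over 3336. At 1 mW and 1x, 6174 (74.0%) of all regions stood at the listed minimum of 1 at 30 s, and 6709 (80.5%) at 180 s. Many ratios of that series, and its early share, thus rest on that minimum. These are descriptions across regions, which share libraries and the authors' normalization.

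Single genes show the range of these changes. Zswim7, at 3, 3 and 70 with 1x Dazl, stood at 42, 44 and 96 with 4.2x Dazl at the same power and at 4, 5 and 48 with 4.2x at 1 mW. Gfm2 (10, 9 and 115) had 32, 59 and 141 with 4.2x at 2.6 mW. Zc3h7b (70, 45 and 53) had 73, 69 and 73 there, and 3, 3 and 17 at 1 mW and 1x. Malat1 had 1101, 1256 and 1999 with 4.2x at 2.6 mW, and Thbs1 had 1222, 1268 and 1593. These genes were chosen after their values were seen. Other high genes were above their 30 s value at 180 s with 1x Dazl too, among them Neat1 (627 and 636), Timp2 (527 and 532) and Sdc4 (319 and 344).

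Whether the course of any gene at 2.6 mW and 1x Dazl differed from that in the other 3 series was tested with limma on log2(value + 3) over all 12 libraries. The fit takes the lone libraries of each condition to vary like those of the other series and leaves 4 residual degrees of freedom. Its spread is the disagreement in time course among the other 3 series. These differ in laser power and Dazl level, so effects of power and level count as noise and differences are hard to call. Of 3203 genes, 0 passed an adjusted p of 0.05 (0% called) for the change from 30 to 180 s, and 0 for the change from 30 to 680 s. At an unadjusted p under 0.05 there were 14 and 116 genes. Both numbers are below 0.05 of the 3203 genes, the share that such a threshold passes where nothing differs. On values divided by the library totals, limma called 0 and 0 as well, with 47 and 263 genes at an unadjusted p under 0.05. The latter is above that share. On deposited values the unadjusted count from 30 to 680 s was above it too with a pseudocount of 10 and without the 2.6 mW and 4.2x series. It was below it under the other alternatives. For Sdc4, the change from 30 to 680 s was 1.45 on the log2 scale here and 1.52 in the other series (difference -0.07, SE 1.34, adjusted p = 1 in limma). An SE of 1.34 on the log2 scale is by itself more than a 2-fold difference in either direction. Much larger differences could thus be missed, and a p that misses the threshold does not show that the courses were alike.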

How the data were processed

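Per the labels, 1 KIN-CLIP library was made for each of 12 conditions analysed here. The authors deposited a score, named normalized coverage: whole numbers per genomic interval, with no strand. The tools FastQC and Bowtie2 and the build mm10 are named, per the submitters' processing notes. How reads were counted and normalized is not given, so the depth in reads is unknown and no counting interval is given. Values at different times can be compared only as far as that normalization allows.

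Intervals of all 12 libraries at most 10 nt apart were joined, and score times width was summed per region and, by overlap, per RefSeq gene (GRCm38.p6). A region in several genes counted for the single protein-coding one. Strand came from the RefSeq promoter table (2553 genes). Classes needed 10 at 680 s for regions and 20 for genes. Tests used limma 3.58.1 in R 4.3.3 (trend, robust, Benjamini-Hochberg) with the 4 series as blocks, and the script was tested on simulated data. Named genes are the 10 highest at 680 s, the 12 with the highest 30 s and the 12 with the lowest 180 s ratio among genes of at least 50 and 3 regions, and the 3 highest of each list; other list members, the genes of a single class, and Sdc4 in the last test, were chosen after values were seen. Some genes that the rule names are not reported here. Named regions are the highest of each class and those of named genes. Members and lists were chosen with earlier results of these data known. Alternatives were the joining gap, the minimum, the share that counts as filled, the scale, the highest position, pseudocounts, a filter on low values and each other series left out.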

Additional observations from a re-analysis of the deposited data

Results flagged for a closer look

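From 30 to 180 s the library total at 2.6 mW changed by -6157 with 1x Dazl and by 11716 with 4.2x Dazl. At 1 mW it changed by -3639 with 1x Dazl and by -26218 with 4.2x Dazl, so only the series of 2.6 mW and 4.2x Dazl rose. The directions at 2.6 mW are opposite, with 1 library per time and Dazl level, and the difference was not tested.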

How the results depend on the processing

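Counts of classes moved with the scale and the minimum. With each library divided by its total there were 4726 early, 308 middle and 2162 late regions, and 1644, 94 and 463 genes. With the highest single position in place of the sum there were 4480 early and 2182 late regions. A minimum of 20 at 680 s left 1851 early and 496 middle regions, and a minimum of 50 left 423 early, 63 middle and 584 late genes, since fewer were classed. A share of 0.6 in place of 0.5 gave 484 early genes. Counts under joining gaps of 0, 25 and 50 nt, the lower minimums, a share of 0.4 and regions in exactly 1 gene stayed within 1.5 times the main ones. The excess of early regions near the downstream end was 14.6 points, 9.09 at a share of 0.6 and 3.95 in genes with 1 region, by alternatives chosen after seeing the data. limma called 0 genes in either contrast under each alternative run. No paired analysis was possible because each condition has 1 library, so groups share fewer than 2 replicate numbers; the blocks in limma are the 4 series. The depth in reads is unknown, and values of 1 may lie at or below a floor.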
